A study of Mus musculus with 18 samples.

Results

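The genes described here are 8 that mark mast cells: the secreted proteases Cma1, Mcpt4, Tpsb2, Tpsab1 and Cpa3, the IgE receptor chains Fcer1a and Ms4a2, and the histamine-making enzyme Hdc. They are 8 of the 55450 genes listed for each tumor, were found by their symbols, and were chosen by their measured levels across these same tumors, so their levels by tumor and their co-variation with each other are given as descriptions without a test. Tests are given for the genotype comparison, fitted over all genes, and for Cpa3 and Hdc against genes and lists that are not members. The lists, like the members, were chosen with earlier results of these data known, which the adjusted p-values do not take into account. RNA was sequenced from 18 spontaneous mammary tumors, each from its own mouse by the series' design text. All mice carried MMTV-Cre(+), a Cre recombinase driven by a mammary tumor virus promoter that acts mainly in mammary epithelium, and a heterozygous H1047R allele written Pikca in the labels. They differed in Cbfb, with 14 Cbfb(het) tumors, 1 Cbfb(homo) tumor and 3 Cbfb(wt) tumors. Strain, sex and age are not in the labels, and each group is a set of spontaneous tumors rather than a cell line. Tumors are named by genotype and a number that follows the order of the samples.

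Mast cells are tissue-resident leukocytes that store proteases and histamine in granules and release them when antigen crosslinks IgE held on their high-affinity receptor. In the mouse, connective tissue mast cells of the kind found in the mammary stroma hold chymases, tryptases and carboxypeptidase A3, whereas mucosal mast cells hold the chymases Mcpt1 and Mcpt2. Cbfb encodes the partner of the RUNX transcription factors, which bind the letters TGTGGT, and GATA factors and MITF are regulators of mast cell genes.

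The promoters of genes that moved together, and of Hdc, which did not move with them, are shown for comparison. Each line gives the 250 bases before the start of the RNA, from RefSeq on GRCm38.p6, 5′ to 3′. Capitals mark matches on either strand, none of which overlapped. The searched letters were AGATAA and TGATAA for the GATA motif, and its forms AGATAG and TGATAG were not searched. For the RUNX motif they were TGTGGT. For the E-box, which MITF can bind, the search used CATGTG, with CACGTG as the other form.
Cma1, chr14:55944676-55944925, minus strand: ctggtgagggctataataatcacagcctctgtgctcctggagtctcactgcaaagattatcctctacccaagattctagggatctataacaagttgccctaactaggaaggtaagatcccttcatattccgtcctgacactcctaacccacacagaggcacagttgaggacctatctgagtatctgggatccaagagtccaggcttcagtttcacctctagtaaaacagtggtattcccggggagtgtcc
Mcpt4, chr14:56062311-56062560, minus strand: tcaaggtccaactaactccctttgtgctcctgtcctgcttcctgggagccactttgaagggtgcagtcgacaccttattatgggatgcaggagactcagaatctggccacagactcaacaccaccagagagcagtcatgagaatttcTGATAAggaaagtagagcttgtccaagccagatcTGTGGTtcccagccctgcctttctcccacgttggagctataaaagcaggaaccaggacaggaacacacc
Cpa3, chr3:20242182-20242431, minus strand: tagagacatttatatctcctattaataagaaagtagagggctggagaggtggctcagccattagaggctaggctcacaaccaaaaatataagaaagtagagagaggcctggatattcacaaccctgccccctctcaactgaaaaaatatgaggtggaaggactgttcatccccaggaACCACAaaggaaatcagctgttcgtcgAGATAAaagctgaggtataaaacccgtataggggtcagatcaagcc
Fcer1a, chr1:173227230-173227479, minus strand: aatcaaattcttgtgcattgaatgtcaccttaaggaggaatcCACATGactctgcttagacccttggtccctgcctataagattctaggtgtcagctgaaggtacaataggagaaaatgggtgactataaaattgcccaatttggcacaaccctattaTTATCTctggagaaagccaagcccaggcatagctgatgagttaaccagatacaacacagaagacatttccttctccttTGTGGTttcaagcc
Hdc, chr2:126618679-126618928, minus strand: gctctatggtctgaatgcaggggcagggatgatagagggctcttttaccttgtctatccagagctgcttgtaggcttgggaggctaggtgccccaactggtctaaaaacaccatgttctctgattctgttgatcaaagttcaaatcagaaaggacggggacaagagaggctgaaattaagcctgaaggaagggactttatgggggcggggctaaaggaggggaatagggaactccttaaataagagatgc
The Mcpt4, Cpa3 and Fcer1a windows each held 1 GATA and 1 RUNX match, while the Cma1 and Hdc windows held neither. The Hdc window did hold TGATAG, and the Cma1 window AGATAG on the other strand, forms outside the search. The Hdc window also lies inside the gene as GENCODE annotates it (126593667 to 126619299), so sequence before its outermost start was not searched. Fcer1a also held the only E-box match among the 6 members with a promoter in the table, and Ms4a2, not printed, held 3 GATA matches and no other. Over 32851 promoters of the same length, 16.6% held a GATA match, 14% a RUNX match and 17.6% an E-box match. Among the 6 members the counts were 4, 3 and 1. A match is a run of letters, not evidence of binding.

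Sequencing depth was 33210207 to 40974130 counts per tumor, so a count of 0 allows a level of up to 3 counts, or 0.0732 to 0.0903 CPM (counts scaled to a common library size). Cbfb itself had 12.82 to 71.09 TPM in Cbfb(het) tumors, 10.83 TPM in the Cbfb(homo) tumor and 12.03 to 35.65 TPM in Cbfb(wt) tumors. The Cbfb(homo) tumor was the lowest of the 18, and the ranges of Cbfb(het) and Cbfb(wt) overlapped. The part of the gene that the alleles delete is not in the labels. The libraries of Cbfb(het) 10 and 14 were far more alike than any other pair, with a median difference of 0.0666 on the log2 scale over 13249 genes, against 0.204 for the next pair. They still differed beyond sampling noise (mean chi-square per gene 4.77), and they were averaged to 1 point in every correlation. The epithelial adhesion gene Epcam stood at 221 counts in Cbfb(wt) 2, 935 in Cbfb(het) 10, 999 in Cbfb(het) 14, 2731 in Cbfb(het) 1 and 4199 in Cbfb(het) 12, and at 14085 or more in the other 13 tumors.

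The mast cell proteases ranged from well above 10 TPM (RSEM's transcript level, corrected for gene length and depth) in a few tumors to almost nothing in others. Summed over the 7 members other than Hdc, the level was 259 TPM in Cbfb(het) 1, 113 in Cbfb(het) 3, 38.9 in Cbfb(het) 9 and 31.4 in Cbfb(het) 5. Cbfb(wt) 2 followed with 29.3 TPM, Cbfb(het) 11 with 24.6, the Cbfb(homo) tumor with 21.7, Cbfb(het) 12 with 19.7 and Cbfb(het) 2 with 12.2. The other 9 tumors lay at 2.8 TPM or less, down to 0.12 TPM in Cbfb(het) 4. In these bulk samples fewer mast cells and less RNA per mast cell cannot be told apart.

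**Figure D1:**
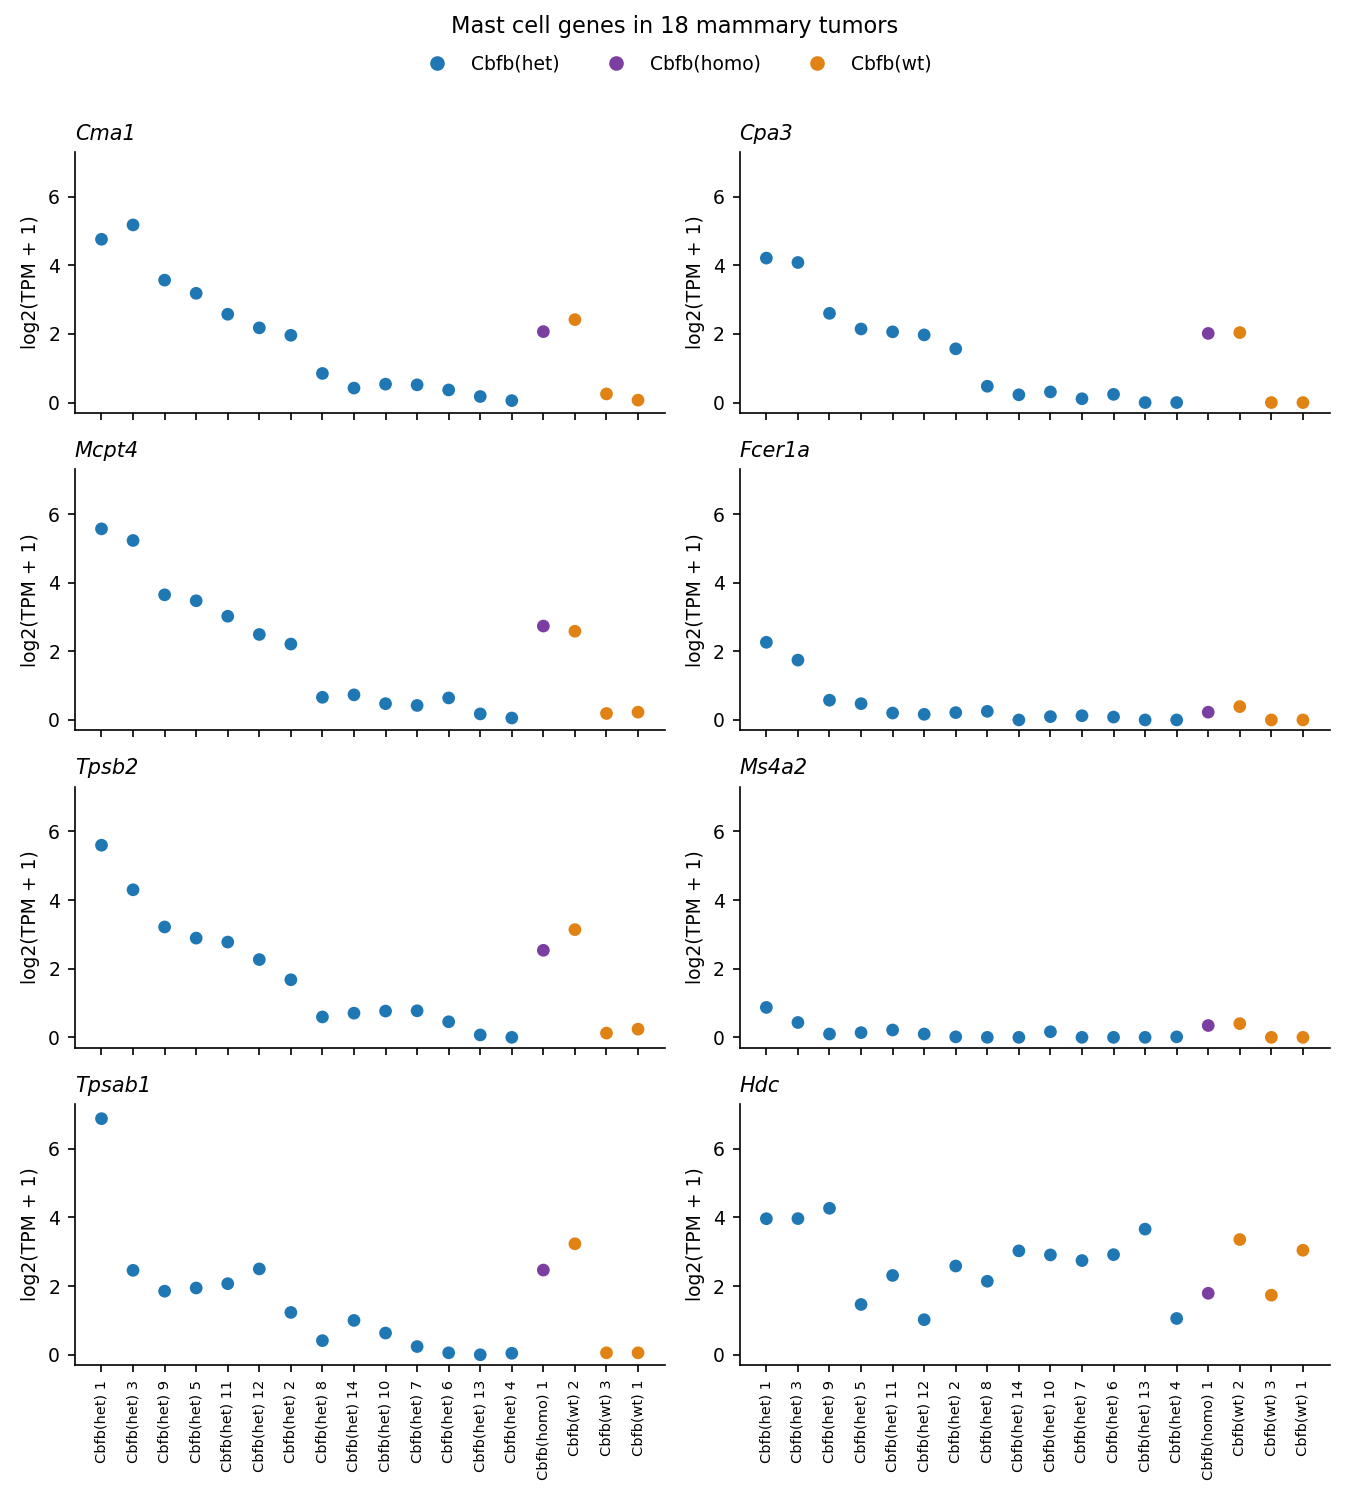
Level of each of the 8 genes as log2(TPM + 1) on the vertical axis, for the 18 tumors on the horizontal axis, grouped as Cbfb(het), Cbfb(homo) and Cbfb(wt) and ordered within a group by the summed level of the 7 genes other than Hdc. Each point is 1 tumor. Cbfb(het) 1 and Cbfb(het) 3 stand highest for Cma1, Mcpt4, Tpsb2, Cpa3, Fcer1a and Ms4a2, whereas Hdc does not follow the order of the other genes.

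Among the chymases, Cma1 had 0.04 TPM at the lowest, 1.845 at the median and 35.13 at the highest of the Cbfb(het) tumors. It had 3.19 TPM in the Cbfb(homo) tumor and 0.05, 4.34 and 0.19 TPM in Cbfb(wt) 1, 2 and 3. Mcpt4, the main chymase of mouse connective tissue mast cells, had 0.04, 2.145 and 46.43 TPM at the lowest, median and highest of the Cbfb(het) tumors. It had 5.66 TPM in the Cbfb(homo) tumor and 0.17, 5 and 0.14 TPM in the 3 Cbfb(wt) tumors. For both genes Cbfb(wt) 2 lay inside the range of the Cbfb(het) tumors and the other two Cbfb(wt) tumors lay near its bottom, so the groups overlapped.

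Cpa3, a zinc carboxypeptidase stored with the chymases, had 0.00, 1.175 and 17.50 TPM at the lowest, median and highest of the Cbfb(het) tumors, and 3.04 TPM in the Cbfb(homo) tumor. It had 0.00, 3.11 and 0.00 TPM in Cbfb(wt) 1, 2 and 3. Its counts were 0 in Cbfb(het) 4, Cbfb(het) 13, Cbfb(wt) 1 and Cbfb(wt) 3, which allows up to 3 counts in each. Ordered by log2 CPM, the 17 points had their widest gap, of 2.02, between Cbfb(het) 8 and Cbfb(het) 12, which left 9 points above it and 8 below. The next widest gap was 1.54.

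The tryptases Tpsb2 and Tpsab1 are trypsin-like proteases stored as tetramers, and their genes lie 20742 bases apart on chromosome 17 in opposite directions (GRCm38, Tpsab1 at 25343245-25345562 on the minus strand and Tpsb2 at 25366305-25369098 on the plus strand). Tpsb2 had 0.00, 1.455 and 47.43 TPM at the lowest, median and highest of the Cbfb(het) tumors, 4.80 TPM in the Cbfb(homo) tumor, and 0.18, 7.81 and 0.09 TPM in the 3 Cbfb(wt) tumors. Tpsab1 had 0.00, 1.175 and 116.67 TPM at the lowest, median and highest of the Cbfb(het) tumors, 4.53 TPM in the Cbfb(homo) tumor, and 0.04, 8.40 and 0.04 TPM in the 3 Cbfb(wt) tumors. The highest Tpsab1 value, in Cbfb(het) 1, was also the highest value of any member in any tumor, and that tumor held 77.3% of the Tpsab1 TPM summed over the 18 tumors. The same tumor held 25.6% for Cma1, 34.8% for Mcpt4, 43.7% for Tpsb2 and 30.6% for Cpa3.

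The balance of the tryptases differed between tumors more than the balance of the chymases. In Cbfb(het) 1 the counts were 2747 for Tpsab1 and 1030 for Tpsb2, so Tpsab1 made 72.7% of the pair (95% exact binomial interval 71.3 to 74.2). In Cbfb(het) 3, which had more Cma1 than Cbfb(het) 1, the counts were 133 and 514, and Tpsab1 made 20.6% (17.5 to 23.9). Cbfb(wt) 2 stood at 54.2% (49.1 to 59.1), the Cbfb(homo) tumor at 51.4% (45 to 57.7) and Cbfb(het) 9 at 25.6% (20.9 to 30.9). These intervals cover counting error only. Across the 13 tumors with at least 20 counts of the pair, the TPM ratio of Tpsab1 to Tpsb2 ran from 0.241 to 2.46, a 10.2-fold range. The ratio of Mcpt4 to Cma1 ran from 0.725 to 1.94 over 13 tumors, a 2.68-fold range, and that of Cpa3 to Cma1 from 0.423 to 0.953 over 10 tumors, a 2.25-fold range.

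**Figure D2:**
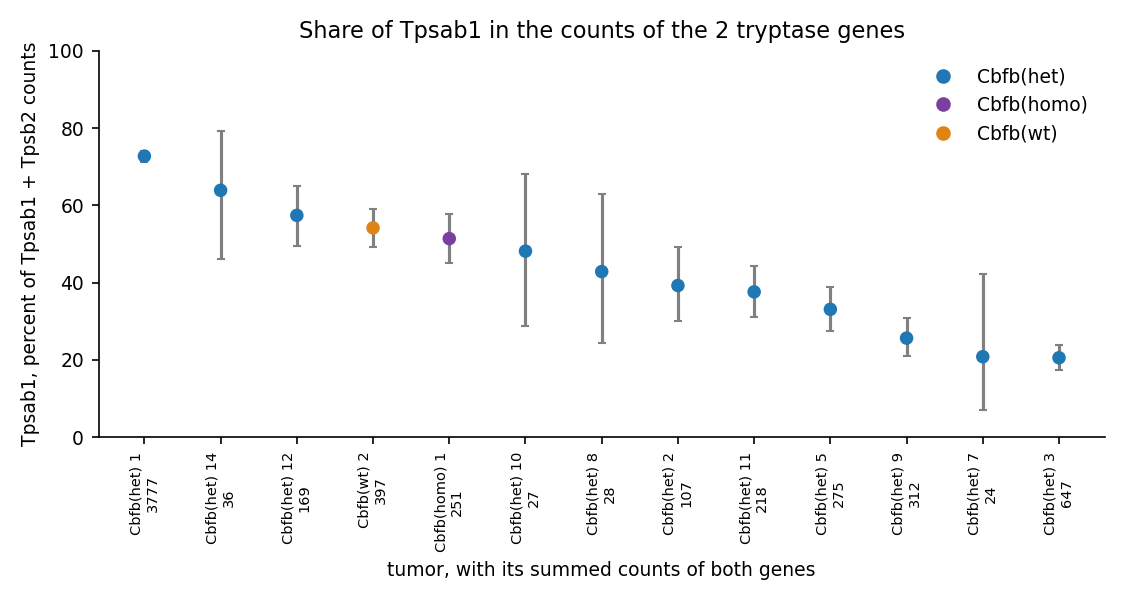
Share of Tpsab1 in the summed counts of Tpsab1 and Tpsb2, in percent on the vertical axis, for the 13 tumors with at least 20 such counts, ordered by the share. Points are tumors colored by genotype, bars are 95% exact binomial intervals, and the number under each name is the summed count. Cbfb(het) 1 stands at 72.7% and Cbfb(het) 3 at 20.6%, with intervals that do not overlap.

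None of the 50-base windows of the annotated Tpsab1 and Tpsb2 transcripts occurs in another gene. Windows shared with another gene made 5.38% for Cma1 (with Gm48934), 5.48% for Mcpt4 (with Cma2 and Mcpt9) and 2.1% for Ms4a2 (with Ms4a4b). They made 0.141% for Hdc, and none were found for Cpa3 or Fcer1a. Of the 144 member values, 2 were not whole numbers before rounding.

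Tpsab1 has 2 transcripts in the GENCODE M21 annotation, a 5-exon form of 1156 bases and a 2-exon form of 1928 bases that keeps introns. As background, C57BL/6 mice are known to carry a splice-site change that disrupts this tryptase, and RefSeq lists Tpsab1 as a transcribed pseudogene, whereas GENCODE lists it as protein coding. The mean transcript length deposited for the gene places 89.3% to 98.5% of its estimated transcripts, median 92.9%, in the 5-exon form across the 12 tumors with at least 10 Tpsab1 counts. Cbfb(het) 1 stood at 94.6%, Cbfb(wt) 2 at 93.4% and the Cbfb(homo) tumor at 90.5%. All 3 lay inside the range of the remaining tumors. These shares rest on the annotated forms alone, since reads were not examined.

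The IgE receptor chains were far lower than the proteases. Fcer1a, the chain that binds IgE, had 0.00, 0.135 and 3.80 TPM at the lowest, median and highest of the Cbfb(het) tumors, 0.17 TPM in the Cbfb(homo) tumor, and 0.00, 0.31 and 0.00 TPM in the 3 Cbfb(wt) tumors. It reached 10 counts in 3 tumors, with 69 counts in Cbfb(het) 1, 56 in Cbfb(het) 3 and 12 in Cbfb(het) 9, and was at 0 in 5. Ms4a2, the beta chain that amplifies the receptor signal, had 0.00, 0.040 and 0.83 TPM at the lowest, median and highest of the Cbfb(het) tumors, 0.27 TPM in the Cbfb(homo) tumor, and 0.00, 0.32 and 0.00 TPM in the 3 Cbfb(wt) tumors. It reached 10 counts in 4 tumors, namely Cbfb(het) 1 with 31, Cbfb(het) 3 with 20, the Cbfb(homo) tumor with 15 and Cbfb(wt) 2 with 11. It was at 0 in 7. Cbfb(het) 1 and Cbfb(het) 3 were highest for both chains, and most other tumors lay within a few counts of 0. Ighe, the IgE heavy chain gene, had 99 counts in Cbfb(het) 11 and at most 4 in any other tumor.

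Hdc, the enzyme that makes histamine from histidine, was detected in all 18 tumors and did not follow the other members. It had 1.03, 6.105 and 18.25 TPM at the lowest, median and highest of the Cbfb(het) tumors, 2.46 TPM in the Cbfb(homo) tumor, and 7.25, 9.24 and 2.33 TPM in Cbfb(wt) 1, 2 and 3. Cbfb(het) 13 had 675 Hdc counts and 0 Cpa3 counts, whereas Cbfb(het) 12 had 42 Hdc counts and 75 Cpa3 counts. Among the 14 tumors with Cpa3 counts above 0, the TPM ratio of Hdc to Cpa3 ran from 0.353 in Cbfb(het) 12 to 71.25 in Cbfb(het) 7, where Cpa3 had 3 counts.

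Over the 17 points, the 21 pairs among the 7 other members had Pearson coefficients of log2 CPM from 0.798 to 0.992, median 0.899, and Spearman coefficients from 0.739 to 0.977, median 0.922. The closest pair was Mcpt4 and Cpa3 at 0.992, followed by Cma1 and Mcpt4 at 0.988, and the loosest was Fcer1a and Ms4a2 at 0.798. The 7 pairs with Hdc had Pearson coefficients from 0.198 with Tpsab1 to 0.5001 with Fcer1a, median 0.308. The median over all 28 pairs was 0.872. All values share library depth, and the genes were chosen for moving together, so no p is given.

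The coefficients were recomputed on each side of the widest gap in Cpa3. Among the 9 points above it, Mcpt4 and Cpa3 stayed at 0.982, Cma1 and Mcpt4 at 0.979 and Cpa3 and Fcer1a at 0.982, while Cma1 and Tpsab1 stood at 0.488. Among the 8 points below it, Mcpt4 and Cpa3 stood at 0.954 and Cma1 and Tpsab1 at 0.796, at levels of 24 counts or less for every member but Hdc. The coefficients of Ms4a2 with the other 6 ranged from -0.274 to 0.351 there, where Ms4a2 had at most 3 counts. The 7 pairs with Hdc had a median of 0.679 above the gap and 0.302 below it. Cbfb(het) 4 and Cbfb(het) 13 lay farthest from the Cpa3 median, tied with Cbfb(wt) 1 and Cbfb(wt) 3, all with 0 Cpa3 counts. The choice of these 2 among the tied points was arbitrary. Without Cbfb(het) 4 and Cbfb(het) 13, the 21 pairs without Hdc had a median of 0.900 and the pairs with Hdc one of 0.279.

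**Figure D3:**
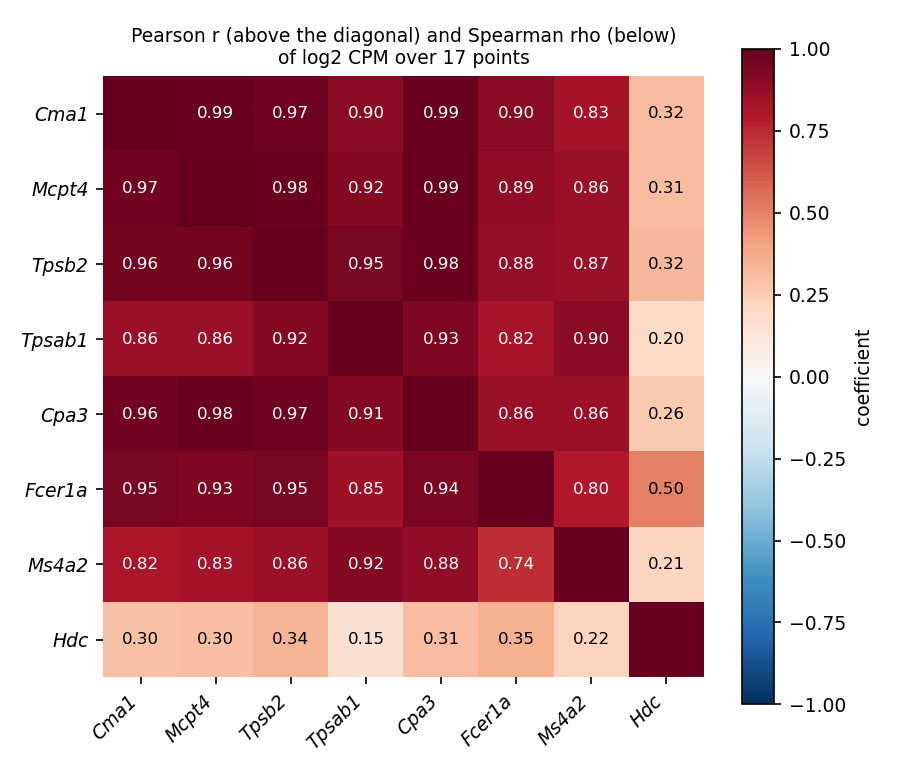
Correlation coefficients between the 8 genes over 17 points (log2 CPM, with Cbfb(het) 10 and 14 averaged), Pearson r above the diagonal and Spearman rho below it. The color scale runs from -1 to 1. The 7 genes other than Hdc have Pearson coefficients of 0.798 or more with each other, and Hdc has 0.5001 or less with each of them.

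**Figure D4:**
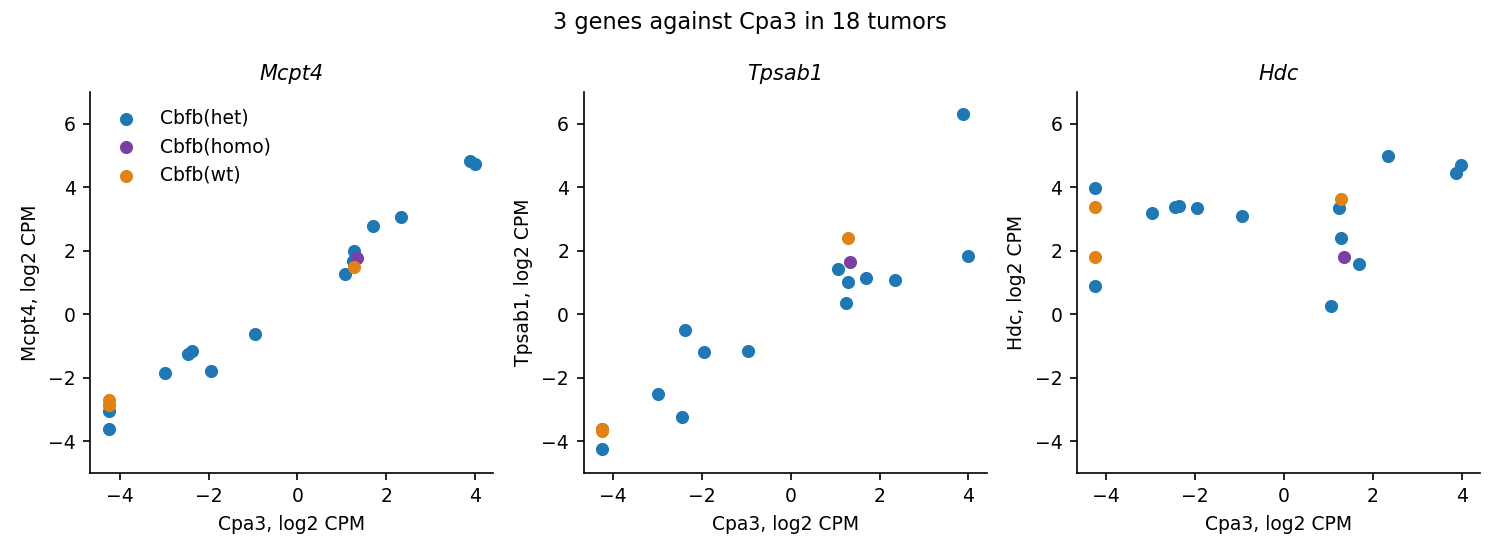
Level of Mcpt4, Tpsab1 and Hdc on the vertical axes against that of Cpa3 on the horizontal axes, both as log2 CPM, in the 18 tumors colored by genotype. Mcpt4 lies close to a line (r = 0.992 over the 17 points), Cbfb(het) 1 stands above the other tumors for Tpsab1, and Hdc does not lie along a line (r = 0.262).

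Hdc was next set against 18 lists of cell type markers, a test chosen after it was seen to depart from the other members. The neutrophil list was the one that passed over the 17 points, with r = 0.820 (two-sided permutation test, adjusted p over the 18 lists = 0.00036) and rho = 0.713 (permutation test, adjusted p = 0.0311). Without Cbfb(het) 12 and Cbfb(het) 4, the points farthest from the Hdc median, r was 0.669 (permutation p = 0.00686, adjusted p over the 18 lists = 0.124). The call at the threshold was thus lost without those points, and leaving them out also narrows the range of Hdc. The mean log2 CPM of the 7 neutrophil genes used was 5.44 in Cbfb(het) 9 and 5.04 in Cbfb(het) 3, which were also highest for Hdc, and 0.495 in Cbfb(het) 12, which was lowest for Hdc. The other 17 lists had coefficients with Hdc from -0.347 to 0.367 and none passed (permutation test, lowest adjusted p 0.622). The part of neutrophils in the Hdc level was not tested.

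Between genotypes, no member passed the test. In edgeR's quasi-likelihood fit of 14 Cbfb(het) against 3 Cbfb(wt) tumors, 0 of 18475 genes were called higher and 0 lower at a Benjamini-Hochberg adjusted p under 0.05, so the share called is 0% in each direction. There were 623 genes with an unadjusted p under 0.05, and DESeq2 called 0 with 932 at that level. All 8 members passed the filter on low counts, and none was called. Fcer1a passed it through Cbfb(het) 1, 3 and 9 alone, and leaving out any 1 of them removed it. Its positive sign is therefore no support for a difference. All 8 members, Fcer1a included, had positive log2 fold changes, with a median of 1.98, against 9833 of the 18475 genes and a median of 0.03. Other lists lay as far or further in that direction, also with no gene called: all 10 skeletal muscle markers were positive with a median of 5.9, all 10 adipocyte markers with 5.13, all 6 B and plasma cell markers tested with 2.19 and all 5 erythroid markers with 2.06. The part of these tissues in the members' differences was not tested. The members move together over tumors, so these are not 8 separate observations. Lists of other mast cell genes differed in sign, with no gene called. Of the other mast cell and basophil serine proteases tested, 3 of 4 were positive, with a median of 2.21. The remaining mast cell lists had negative medians, from -0.14 to -0.0526. Among them, 5 of 14 IgE receptor signalling genes and 1 of 12 transcription factors were positive.

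Among the proteases, the mean of Mcpt4 on the log2 CPM scale was 0.494 ± 2.77 over the 14 Cbfb(het) tumors and -1.36 ± 2.48 over the 3 Cbfb(wt) tumors (± SD), and its fitted log2 fold change was 2.52 ± 1.90 (SE, edgeR adjusted p = 0.999). Each SE given for the edgeR fit was back-calculated, as the absolute log2 fold change divided by the square root of the F statistic. Cma1 stood at 2.38 ± 1.85, Cpa3 at 2.03 ± 2.04 and Tpsb2 at 1.54 ± 1.80 (log2 fold change ± SE, each with an edgeR adjusted p of 0.999). Tpsab1 stood at 1.93 ± 2.25, but the sign turned without Cbfb(het) 1, to -0.58. It was -0.60 in DESeq2, which replaced the count of that tumor and gave no p. The receptor chains stood at 2.60 ± 1.87 for Fcer1a and 0.71 ± 1.53 for Ms4a2, and Hdc at 0.42 ± 0.755. These values leaned on single tumors. Ms4a2 stood at 0.14 without Cbfb(wt) 1, 0.15 without Cbfb(wt) 3 and 5.53 without Cbfb(wt) 2, and Hdc at 0.04 without Cbfb(wt) 3. Tpsb2 stood at 0.73 without Cbfb(het) 1 and 5.77 without Cbfb(wt) 2, and without Cbfb(wt) 2 Fcer1a stood at 6.59 and Cpa3 at 9.96. Apart from that of Fcer1a, each fitted difference over the 17 tumors was smaller than the gene's SD of log2 CPM over the Cbfb(het) tumors. For Fcer1a, with few counts in most tumors, that SD was 1.675 against the fitted 2.60. The Cbfb(wt) tumors also lay far apart: Cbfb(wt) 1 and 3 had 10 summed counts each of the 7 genes other than Hdc, and Cbfb(wt) 2 had 724. Without Cbfb(wt) 2 the fitted log2 fold change of Cma1 was 5.92 and that of Mcpt4 5.91, each with an edgeR adjusted p of 0.979. The Cbfb(homo) tumor has no replicate. Its summed level of 21.7 TPM lay between those of Cbfb(het) 11 and Cbfb(het) 12.

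Other genes of the mast cell program were read from 7 lists of 76 genes, of which 53 had a mean log2 CPM of at least 0 and were set against Cpa3 over the 17 points. Of these, 11 followed Cpa3 upward and 0 downward (two-sided permutation tests of Pearson r with 100000 resamples, adjusted p under 0.05 over the 53 genes). The median r of the 53 was 0.306, against -0.03 for 14184 genes at that level. The share of those 14184 genes that would pass the same test is not given, so the count of 11 has no background beside it. IgE receptor signalling genes made 5 of the 11, out of 14: the shared receptor chain Fcer1g (r = 0.740), the kinases Fyn (0.741), Syk (0.698) and Btk (0.685), and the adaptor Lat2 (0.636). Plcg2, which releases the calcium signal, had the lowest r of that list, -0.538 (permutation test, adjusted p = 0.0707), and it was the 1 gene that passed downward by rank (rho = -0.587, permutation test, adjusted p = 0.0492). By rank 15 genes passed upward. Mediator genes made 3 of 9: Ltc4s (0.691), Alox5 (0.671) and Alox5ap (0.650), which together make leukotriene C4, while the granule proteoglycan Srgn had -0.03.

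The remaining lists gave 1 gene each or none. The myeloid factor Spi1 (0.736) passed among 12 transcription factors, the histamine receptor Hrh2 (0.632) among 3 histamine genes and the IL-33 receptor Il1rl1 (0.618) among 6 surface genes. Il1rl1 had 22794 counts in Cbfb(wt) 2, 10453 in Cbfb(het) 12 and 2000 in Cbfb(het) 1. It had 243 in Cbfb(het) 3, which was highest for Cpa3 by log2 CPM. Its r was -0.06 above the Cpa3 gap and 0.252 below it. Kit, the stem cell factor receptor that mast cells need, ranged from 339 to 21573 counts and had r = -0.376 (permutation test, adjusted p = 0.248). Its highest count was in Cbfb(het) 11 and its lowest in Cbfb(wt) 2. The next lowest Kit counts were 452 in Cbfb(het) 10, 480 in Cbfb(het) 14 and 668 in Cbfb(het) 1, tumors that were also low in Epcam. The part of epithelial cells in the Kit level was not tested. None of the 9 growth and recruitment factors passed by r: Ccl5 had 0.594 (permutation test, adjusted p = 0.0504), and Kitl, the ligand of Kit, had 0.08. The transcription factor Gata2 had r = 0.09, Runx1 -0.260 and Cbfb -0.388, none of which passed.

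Within the sides of the Cpa3 gap, where Cpa3 itself spans a narrower range, the 11 genes had r from -0.125 for Hrh2 to 0.503 for Alox5ap, median 0.317, over the 9 upper points. Over the 8 lower points they had r from -0.433 for Btk to 0.663 for Alox5ap, median 0.03. For Fcer1g the values were 0.353 above and 0.155 below, and for Spi1 0.499 and 0.154. Alox5ap was the only one of the 11 with r over 0.5 on both sides. These within-side values were not tested. The count of 11 was 5 without the 2 points farthest from the Cpa3 median and 0 in the Cbfb(het) tumors alone, where 15 had an unadjusted permutation p under 0.05. It was 0 without Cbfb(het) 1, where 16 had an unadjusted p under 0.05, 3 without Cbfb(wt) 1, 5 without Cbfb(het) 4, 6 without Cbfb(het) 6, 7 without Cbfb(het) 7 and 17 without the point of Cbfb(het) 10 and 14. Spi1, Fcer1g, Syk and Btk are also used by macrophages, whose list moved with Cpa3 as given below, and the part of macrophages in these relations was not tested.

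Genes below that level include those most restricted to mast cells. With no filter on level, 74 genes were tested and 26 passed, of which 10 were below the level, all with positive r. The share of all genes that would pass is not given here either. Slc18a2, which loads histamine into granules, had 0 to 23 counts and r = 0.923 (permutation test, adjusted p = 0.00037). The receptors for cationic secretagogues Mrgprb1, with 0 to 68 counts, and Mrgprb2, with 0 to 20, had r = 0.883 and 0.821 (permutation tests, adjusted p = 0.00037 and 0.000493). All 3 were highest in Cbfb(het) 1. The raw p of Slc18a2 and Mrgprb1 was 1e-05, the smallest that the resamples can give.

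The chymases of mucosal mast cells were concentrated in Cbfb(het) 1. Mcpt2 had 657 counts there, 64 in the Cbfb(homo) tumor, 33 in Cbfb(wt) 2, 22 in Cbfb(het) 12 and at most 3 elsewhere. Mcpt1 had 313 counts in Cbfb(het) 1, 38 in the Cbfb(homo) tumor, 34 in Cbfb(het) 9 and at most 11 elsewhere. Mcpt1 followed Cpa3 (r = 0.676, permutation test, adjusted p = 0.0113 over the 74 genes), and Mcpt2 did not pass (r = 0.502, permutation test, adjusted p = 0.068). Cbfb(het) 3, the second richest in the other proteases, had 9 Mcpt1 counts and 0 Mcpt2 counts. Basophils share Fcer1a, Ms4a2 and Hdc with mast cells. Their protease Mcpt8 had 33 counts in Cbfb(het) 1, 21 in Cbfb(het) 5 and 11 in Cbfb(het) 11, and their marker Prss34 had at most 4 in any tumor. Mcpt8 followed Cpa3 (r = 0.612, permutation test, adjusted p = 0.0299 over the 74 genes). So did the basophil marker Cd200r3, with at most 15 counts (r = 0.638, permutation test, adjusted p = 0.0227). Prss34 (r = 0.112) and Il4 (r = 0.125) did not pass. The part of basophils in these relations was not tested. Of the 6 basophil markers listed, 1, Itga2b, was above the level used for lists.

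Lists of other cell types were set against Cpa3 in the same way. Of 18 lists, 7 rose with Cpa3 and 0 fell (two-sided permutation tests of r, adjusted p under 0.05 over the 18 lists). Cpa3 and the lists were chosen with earlier results known, so these p-values are limited as stated in the opening. Macrophage markers had r = 0.733 (permutation test, adjusted p = 0.0137), fibroblast markers 0.669 (0.0254), skeletal muscle markers 0.652 (0.0254) and erythroid markers 0.636 (0.0342). Adipocyte markers had 0.602 (0.0445), smooth muscle and pericyte markers 0.570 (0.0488) and endothelial markers 0.560 (0.0488), where the value in brackets is the adjusted permutation p. Epithelial markers had -0.216, milk genes -0.128 and proliferation genes 0.05, none of which passed. The median r of the 18 lists was 0.493. The share of lists of other genes that would pass is not given, so the count of 7 has no background beside it.

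Macrophage markers had a mean log2 CPM of 6.01 to 7.82, median 6.69, in the 9 points above the Cpa3 gap and 5.08 to 6.19, median 5.53, in the 8 below it, so the sides overlapped. Skeletal muscle markers had medians of 3.72 and -1.07, and adipocyte markers of 4.47 and 1.42, on the upper and lower side. Within the sides, the macrophage coefficient was 0.278 above and -0.215 below. The erythroid list alone among the 7 kept a coefficient over 0.6 on both, at 0.765 and 0.640. The count of 7 was 2 without Cbfb(het) 4 and Cbfb(het) 13, and 0 in the Cbfb(het) tumors alone, where 6 had an unadjusted permutation p under 0.05. Leaving out 1 point gave 1 without Cbfb(het) 13 or Cbfb(wt) 3, 3 without Cbfb(het) 1, 5 or 9 or Cbfb(wt) 1, and 4 without Cbfb(het) 2, 3, 6, 7, 8, 11 or 12. The part of other stromal cells and of tissue taken with the tumor in the level of the mast cell genes was not tested.

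**Figure D5:**
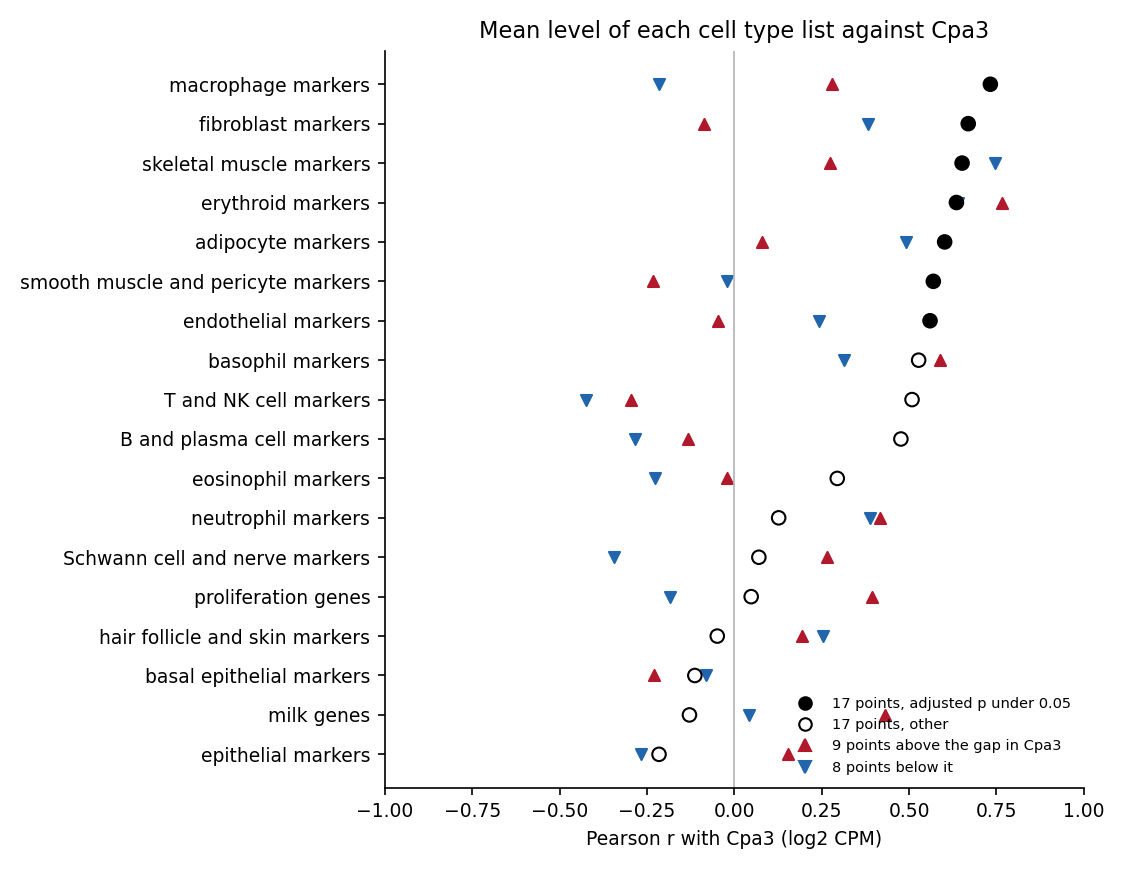
Pearson r between the mean log2 CPM of each of 18 cell type lists and Cpa3 on the horizontal axis, with 1 list per row. Circles are the 17 points, filled where the adjusted permutation p is under 0.05, upward triangles are the 9 points above the Cpa3 gap and downward triangles the 8 below it. Macrophage markers have r = 0.733 over all points, 0.278 above the gap and -0.215 below it.

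The genes most like the members, by Pearson r with the mean standardized log2 CPM of the 8 members over the 17 points among 13054 named genes whose log2 CPM averaged 0 or more, were Igfbp6 (r = 0.899), Pcolce2 (0.888), Ccl11 (0.887), Cfp (0.876) and Tnxb (0.868). Slc28a2 (0.861), Tnfsf14 (0.860), Prr13 (0.859), Ms4a4d (0.850) and Folr2 (0.847) followed. They were ranked by this value, so no p is given. Igfbp6 encodes an IGF-binding protein, Pcolce2 an enhancer of procollagen cleavage and Tnxb a matrix glycoprotein. Ccl11 encodes the chemokine eotaxin, Cfp the complement regulator properdin and Folr2 a folate receptor of macrophages. Igfbp6 ranged from 1.02 to 88.52 TPM and Ccl11 from 0.19 to 56.96 TPM. Above the Cpa3 gap Igfbp6 had r = 0.853 with the member mean and Ccl11 0.836, and below it they had 0.757 and 0.589. Folr2 had 0.781 above and -0.401 below. None of the 10 belongs to the 7 mast cell lists, but the limit on level left out the list genes closest to Cpa3, namely Slc18a2, Mrgprb1 and Mrgprb2.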

How the data were processed

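Per the labels' protocols, Trizol RNA went into TruSeq Stranded mRNA libraries. STAR 2.7.0f and RSEM 1.3.1 on mm10 (GRCm38) come from the submitters' processing notes. How strand was set in counting is not given in the sources used here. The authors deposited, per the file headers, expected counts and TPM for each gene and tumor, with mean transcript length. From these, expected counts were rounded, log2 CPM were computed (TMM factors, prior count 2), and Cbfb(het) was tested against Cbfb(wt) with edgeR 4.0.16 (quasi-likelihood, filterByExpr, Benjamini-Hochberg), checked on simulated data, with DESeq2 1.42.0 as an alternative. Correlations used numpy and scipy 1.17.1 and 100000 permutations. Motifs were searched in RefSeq promoters, and transcripts came from GENCODE M21. Depth was 33210207 to 40974130 counts per tumor. The members and lists were chosen with earlier results of these data known. Named genes are the members, list genes by the highest and lowest r, and the 10 most alike. The series' design text gives each tumor its own mouse, so p-values measure the spread between tumors.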

Additional observations from a re-analysis of the deposited data

How the results depend on the processing

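The number of genes called between Cbfb(het) and Cbfb(wt) was 1, Tex11, lower, with no low-count filter and 1, Tex11, lower, with all 18 tumors in the fit. It was 0 under RLE size factors (601 genes with an unadjusted p under 0.05), DESeq2 and the averaging of Cbfb(het) 10 and 14, and 0 in each fit that left out 1 tumor (520 to 920 at an unadjusted p under 0.05). The Tpsab1 log2 fold change turned to -0.60 in DESeq2, where 1 count was replaced, and spanned -0.58 to 7.82 when 1 tumor was left out. The other 7 members kept a positive sign in every fit run, of which a few gave no value for Fcer1a and Ms4a2 because the filter removed them. Without Cbfb(wt) 2 both remaining Cbfb(wt) tumors had 0 counts of Cpa3, Fcer1a and Ms4a2, so those fitted values depend on the prior count. The median coefficient between members stayed between 0.847 and 0.896 in the 23 alternatives. Of the partner genes set against Cpa3, 0 passed in the Cbfb(het) tumors alone, 5 without the 2 farthest points, 26 with no level filter, 8 on log2(TPM + 1), 16 by Spearman (15 upward and 1, Plcg2, downward) and 0 to 17 when 1 point was left out. Of the lists, 1 passed on log2(TPM + 1), 2 with all 18 tumors as points, 0 in the Cbfb(het) tumors alone, 2 without the 2 farthest points, 10 with no level filter and 1 to 7 when 1 point was left out. Of the 10 genes most like the members, 6 were among the top 10 by Spearman. The causes of these shifts were not tested. The choice of leaving points out of the correlations and of Spearman for the counts against Cpa3 was made after seeing the data. No paired analysis was possible because the replicate numbers follow the order of the samples and pair none of them, so no replicate block could be fitted. Depth limits Fcer1a, Ms4a2 and every member below the Cpa3 gap, where counts are few.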
